A study of Mus musculus with 6 samples.

Results

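The genes described here carry out mitosis and DNA replication, and 59 were chosen by name for these roles: 30 act in mitosis and 29 in S phase. A gene was measured where the array annotation gave at least one probe set its symbol and no other, and its value was the mean log2 value of those probe sets on an array. By that rule 58 of the 59 were measured, out of 20416 genes in all. They were 29 mitotic and 29 replication members. The exception was Ccnb1, the gene of cyclin B1, which no usable probe set named, so it was not analysed here.

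The samples were 6 Affymetrix arrays of RNA from MIN6-4N, which derives from a mouse insulinoma, a tumour of pancreatic beta cells. The Meg3 group was 3 independent cultures of 1 clone stably transfected with pcDNA3.1-mMeg3, a plasmid that carries mouse Meg3, an imprinted long non-coding RNA expressed from the maternal chromosome. The vector group was 3 independent cultures of 1 clone, Vec-3, stably transfected with the empty plasmid pcDNA3.1. Both clones were picked after 5 weeks in 750 µg/ml G418 and grown in low-glucose medium with 15% serum and 500 µg/ml G418, so both carry the resistance marker and were under the drug. The labels name the Meg3 clone as Meg-3 in one place and Meg-5 in another, and they mention a sort of the cells that no protocol describes. Because each group is 1 clone, what the Meg3 plasmid does cannot be told apart from other ways in which these clones differ, and p-values measure only the spread between cultures.

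Before a cell divides it copies its DNA in S phase and then separates the copies in mitosis. E2F transcription factors switch on replication genes as a cell passes from G1 into S phase. Mitotic genes come on later, in G2, when FOXM1 and the MuvB complex act at a promoter element called the cell cycle genes homology region (CHR), often beside CCAAT boxes bound by NF-Y. The RNA of these genes therefore tracks how many cells of a culture are cycling and where they are in the cycle. Adult beta cells divide rarely, while insulinoma lines such as MIN6 divide in culture.

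The promoters of the members showed this division in their letters. RefSeq promoters of the build GRCm38.p6, running from 250 bases before to 50 bases after a gene's start, were matched by symbol to 50 of the 59 members, which gave 27 mitotic promoters of 26 genes (Ccnb1 among them) and 29 replication promoters of 24 genes. Both strands were searched for the CHR word TTTGAA, the word CCAAT, and any of 4 E2F words, TTTGGCGC, TTTCGCGC, TTTGCCGC and TTTCCCGC. The CHR word was found in 22 of the 27 mitotic promoters (81.5%), in 3 of the 29 replication promoters (10.3%) and in 17.9% of all 32851 promoters in the table. An E2F word was found in 1 mitotic promoter (3.7%), in 11 replication promoters (37.9%) and in 2.26% of all promoters. CCAAT was common to both sets, with 22 mitotic promoters (81.5%), 16 replication promoters (55.2%) and 37.4% of all promoters. The CHR word and CCAAT stood together in 19 mitotic promoters (70.4%), 2 replication promoters (6.9%) and 6.95% of all promoters. Of the 27 CHR matches in mitotic promoters, 21 lay within 50 bases of the gene's start, and the median position was 5 bases after it. Prc1 has overlapping promoters among these, so its CHR and CCAAT words were counted more than once. Median GC content was 58.7% in mitotic, 61.3% in replication and 52.7% in all promoters. These are matches of letters and not measured binding.

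**Figure D1:**
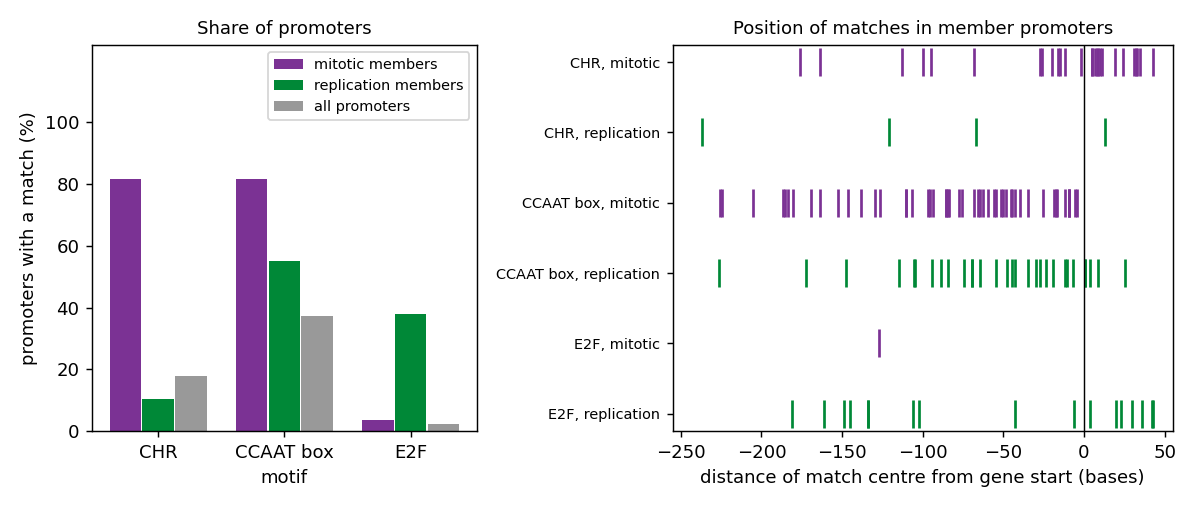
Motif matches in RefSeq promoters (GRCm38.p6, 300 bases each). The left panel gives the percentage of mitotic, replication and all promoters with a match, and the right panel gives the distance of each match's centre from the gene's start in bases, with 1 tick per match. CHR words were in 81.5% of mitotic and 10.3% of replication promoters, and most mitotic matches lay beside the start.

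A group of 6 promoters is printed because the results below turn on these genes: Ttk, Ccnb2 and Cdc6 had the lowest differences between the clones once the most divergent cultures were left out, Mcm3 had the highest difference with all arrays, and Ube2c and Mcm6 went opposite ways in single cultures. Capitals mark the motif matches, read on either strand, so a match on the other strand appears as its reverse complement. Each sequence runs 5′ to 3′ on the gene's strand, and the gene's start follows base 250. The mitotic promoters are those of Ttk at chr9:83834439-83834738 (plus strand), Ccnb2 at chr9:70421505-70421804 (minus strand) and Ube2c at chr2:164769679-164769978 (plus strand).
Ttk: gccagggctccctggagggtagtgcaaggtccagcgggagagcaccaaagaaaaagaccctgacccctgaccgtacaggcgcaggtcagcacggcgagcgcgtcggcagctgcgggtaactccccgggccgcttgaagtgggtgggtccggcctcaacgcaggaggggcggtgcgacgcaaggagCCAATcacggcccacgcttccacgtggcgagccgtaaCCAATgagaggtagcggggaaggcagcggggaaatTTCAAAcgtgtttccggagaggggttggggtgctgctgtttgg
Ccnb2: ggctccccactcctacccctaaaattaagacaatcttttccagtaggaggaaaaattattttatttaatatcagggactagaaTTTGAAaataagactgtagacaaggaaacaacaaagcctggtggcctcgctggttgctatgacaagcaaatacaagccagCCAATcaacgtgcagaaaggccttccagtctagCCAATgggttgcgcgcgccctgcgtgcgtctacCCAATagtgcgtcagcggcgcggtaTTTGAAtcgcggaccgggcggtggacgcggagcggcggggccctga
Ube2c: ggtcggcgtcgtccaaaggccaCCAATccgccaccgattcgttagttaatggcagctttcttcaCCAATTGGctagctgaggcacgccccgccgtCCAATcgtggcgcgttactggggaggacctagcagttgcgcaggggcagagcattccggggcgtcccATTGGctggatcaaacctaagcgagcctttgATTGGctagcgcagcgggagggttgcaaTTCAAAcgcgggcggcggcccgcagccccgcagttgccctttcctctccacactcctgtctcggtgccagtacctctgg
The replication promoters are those of Cdc6 at chr11:98907901-98908200 (plus strand), Mcm3 at chr1:20820263-20820562 (minus strand) and Mcm6 at chr1:128359656-128359955 (minus strand).
Cdc6: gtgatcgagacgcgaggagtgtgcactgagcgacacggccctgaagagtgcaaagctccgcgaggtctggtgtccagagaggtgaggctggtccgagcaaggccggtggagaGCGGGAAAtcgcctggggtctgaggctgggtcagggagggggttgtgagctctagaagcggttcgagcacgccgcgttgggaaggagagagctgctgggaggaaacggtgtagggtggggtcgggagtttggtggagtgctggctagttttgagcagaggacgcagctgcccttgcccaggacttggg
Mcm3: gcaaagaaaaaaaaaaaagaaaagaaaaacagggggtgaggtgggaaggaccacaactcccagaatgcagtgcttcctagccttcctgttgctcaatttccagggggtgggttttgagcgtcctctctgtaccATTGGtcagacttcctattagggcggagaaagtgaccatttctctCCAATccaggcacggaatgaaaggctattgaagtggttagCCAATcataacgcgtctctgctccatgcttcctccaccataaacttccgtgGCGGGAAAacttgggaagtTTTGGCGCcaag
Mcm6: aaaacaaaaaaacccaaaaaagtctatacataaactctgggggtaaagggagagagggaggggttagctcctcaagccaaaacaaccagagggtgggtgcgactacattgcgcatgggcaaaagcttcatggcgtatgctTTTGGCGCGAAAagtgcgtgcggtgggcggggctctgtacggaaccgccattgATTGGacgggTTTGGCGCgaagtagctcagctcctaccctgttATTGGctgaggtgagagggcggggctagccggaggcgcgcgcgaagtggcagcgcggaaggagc
All the mitotic promoters printed hold a CHR word and CCAAT words and no E2F word. The replication promoters printed hold E2F words and no CHR word, though only 11 of the 29 replication promoters hold an E2F word. The Cdc6 promoter has no CCAAT word.

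Meg3 RNA itself was 7.24, 7.91 and 7.53 on the log2 scale in the 3 Meg3 cultures, against 5.63, 6.00 and 5.88 in the vector cultures, a difference of 1.72 with a standard error of 0.19 (limma, adjusted p = 0.00756). Of 10 beta cell marker genes, 9 lay above 6.66, the median of all genes, and their mean was 9.93 to 10.04 in Meg3 and 9.91 to 10.06 in vector cultures. None of the 4 acinar, 3 duct, 3 endothelial and 2 delta cell markers lay above that median. The alpha cell genes Gcg and Irx2, the PP cell gene Ppy, 1 of 3 leukocyte markers (Cd68) and 1 of 3 fibroblast markers (Col1a1) did, and none of these markers was called. Gcg was 12.79, 12.62 and 12.58 in Meg3 and 12.72, 12.95 and 12.78 in vector cultures. Cd68 was 8.04, 8.47 and 8.47 in Meg3 and 9.13, 7.99 and 8.75 in vector cultures, with its low values in the divergent cultures named next, and its part in the results was not tested. Pairs of arrays correlated at 0.968 or more over gene values. On probe sets, however, Meg3 culture 1 and vector culture 2 stood apart, with SDs of 0.63 and 0.85 about the median of the rest, where the remaining arrays had 0.42 to 0.48. Neither was labelled as different. For the members given in full, the difference between the clones is followed by its value without this divergent pair of cultures. There is no depth behind an array value, and the number of arrays limits the precision.

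Between the clones, no member passed the test. All 58 members lay above the median of all genes, which is not a detection limit. The lowest, Ung, averaged 6.76 in Meg3 and 6.90 in vector cultures, near that median of 6.66. At an adjusted p under 0.05 limma called 0 of 58, against 0.666% of all genes (136 of 20416, with 0.201% higher and 0.465% lower). Ttk was the 1 member with an unadjusted p under 0.05, against 6.96% of all genes. The count of calls was also 0 with limma's trend and robust settings, and 3 with array weights, where 6.0% of all genes were called (1.79% higher and 4.21% lower). The Meg3 and vector cultures did not overlap for 3 members, Ccne1 higher in Meg3 and Ttk and Prc1 lower, which is 5.17% of the members against 12.8% of all genes (6.41% higher and 6.39% lower). The 95% interval of the difference lay within 1 log2 unit, a 2-fold change, for 55 of the 58 members. The exceptions were Aurkb, Mcm7 and Gins2. In bulk RNA, fewer cycling cells and less RNA per cycling cell cannot be told apart.

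**Figure D2:**
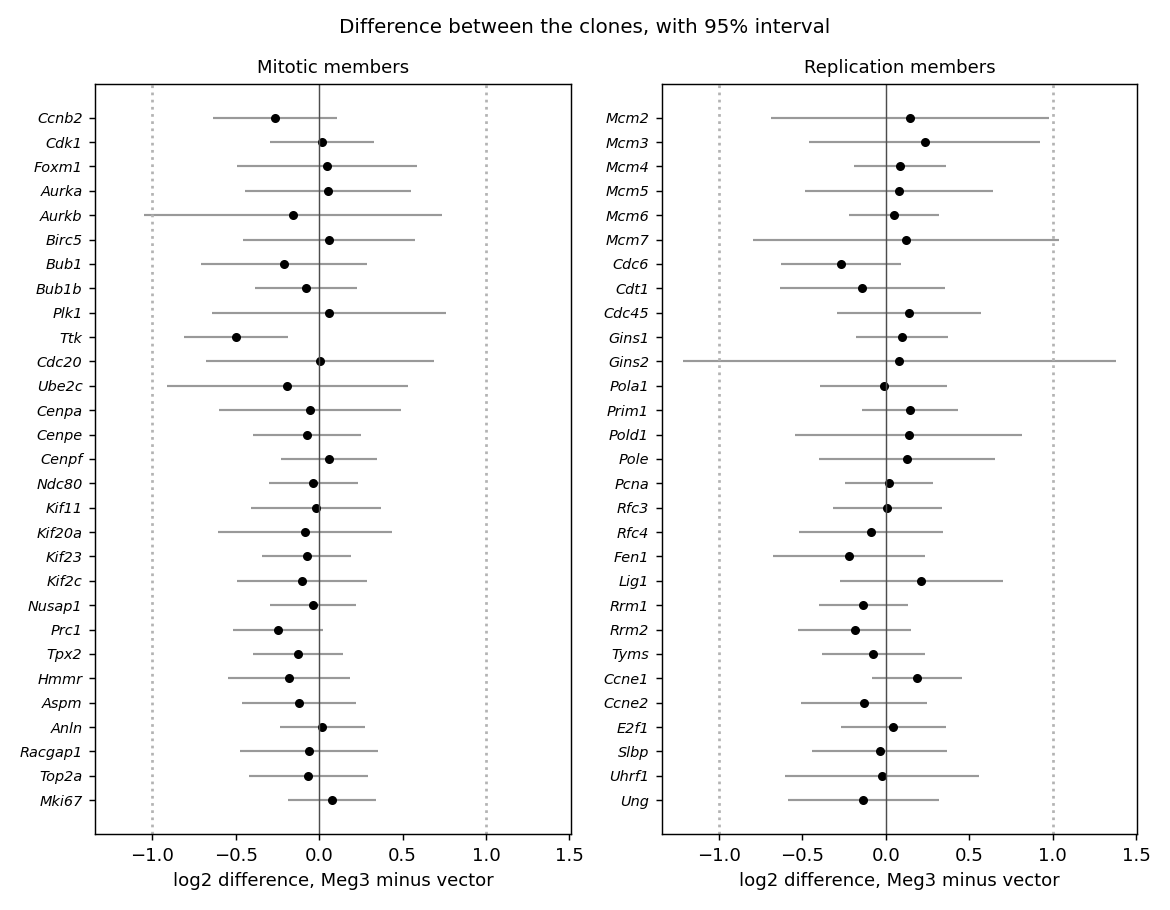
Log2 difference between the clones (Meg3 minus vector) for each of the 29 mitotic and 29 replication members, with its 95% interval from limma (3 cultures each). Dotted lines mark 1 log2 unit. Ttk is the member whose interval excludes 0, at -0.50, and the interval of Gins2 is the widest.

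Mitotic members had a median difference of -0.07, with 20 of 29 below 0. Over all genes the median was 0.01, with 9879 of 20416 below 0. The median was -0.18 without vector culture 2 and 0.01 with the brightest probe set. In the cyclin B and CDK1 engine that starts mitosis, Ccnb2, which encodes cyclin B2, was 10.49, 10.42 and 10.48 in Meg3 and 10.96, 10.39 and 10.85 in vector cultures. Vector culture 2 lay with the Meg3 cultures and the other vector cultures lay above them, so the groups overlapped (difference -0.27, standard error 0.16, adjusted p = 0.954, and -0.45 without the pair). Cdk1, its kinase partner, was 9.17, 8.93 and 8.75 in Meg3 and 8.88, 8.98 and 8.93 in vector cultures, a difference of 0.02 (-0.06 without the pair). Foxm1, the transcription factor of the mitotic genes, was 9.82, 10.44 and 10.51 in Meg3 and 10.39, 9.81 and 10.43 in vector cultures, a difference of 0.05 (0.06 without the pair). In Foxm1 the low culture of each clone was the one that stood apart on the probe sets, and the remaining cultures of both clones lay together.

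Among the mitotic kinases and checkpoint proteins, the lowest difference was that of Ttk, the MPS1 kinase that starts the spindle checkpoint. Ttk was 9.68, 9.45 and 9.31 in Meg3 and 9.89, 10.09 and 9.96 in vector cultures. Every Meg3 culture lay below every vector culture, and the difference was -0.50 with a standard error of 0.14 (limma, adjusted p = 0.265, and -0.54 without the pair). Bub1, a checkpoint kinase that works beside it at kinetochores, was 10.48, 10.07 and 9.89 in Meg3 and 10.13, 10.77 and 10.17 in vector cultures, a difference of -0.21 (-0.17 without the pair) with overlap. The aurora B kinase and survivin, encoded by Aurkb and Birc5, share the chromosomal passenger complex that corrects faulty attachments. Aurkb was 9.11, 10.12 and 9.87 in Meg3 and 10.39, 8.99 and 10.19 in vector cultures, so that one culture of each clone lay about a log2 unit below the others. Its difference of -0.15 had a 95% interval of -1.05 to 0.74, and was -0.30 without the pair. Birc5 was 9.43, 9.82 and 9.50 in Meg3 and 9.75, 9.01 and 9.81 in vector cultures, a difference of 0.06 (-0.12 without the pair). Plk1, the polo-like kinase that drives entry into mitosis and spindle assembly, was 8.65, 9.35 and 9.16 in Meg3 and 9.42, 8.30 and 9.27 in vector cultures, a difference of 0.06 (-0.09 without the pair). Both genes overlapped between the clones, and their lowest culture was again vector culture 2. Aurka, which encodes the kinase of the spindle poles, and Bub1b, which encodes the checkpoint protein BUBR1, differed by 0.05 and -0.08.

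Cdc20 and Ube2c encode an activator and the ubiquitin-conjugating enzyme of the anaphase-promoting complex, which ends mitosis by marking cyclin B for destruction. They differed by 0.00 and -0.19 between the clones. At centromeres, Cenpa, the histone H3 variant that marks them, was 8.64, 8.91 and 8.61 in Meg3 and 9.10, 8.20 and 9.03 in vector cultures, with vector culture 2 lowest of all and the other vector cultures highest (difference -0.05, and -0.30 without the pair). Cenpf, a large kinetochore protein, was 10.55, 10.32 and 10.41 in Meg3 and 10.24, 10.48 and 10.39 in vector cultures, a difference of 0.06 (0.05 without the pair) with overlap. Cenpe and Ndc80, a kinetochore motor and a microtubule-binding subunit, differed by -0.07 and -0.04.

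The 9 spindle motors and microtubule proteins all had a difference below 0, from -0.25 to -0.02, with a median of -0.10. All 9 were also below 0 without the pair, but 5 were with the brightest probe set and 6 with the median of the probe sets. Without vector culture 2 alone 7 were, and 7 were when the arrays were quantile normalized again. Prc1, which bundles antiparallel microtubules at the midzone, had the lowest of these differences. Prc1 was 9.68, 9.55 and 9.66 in Meg3 and 9.82, 9.80 and 10.01 in vector cultures, without overlap (difference -0.25, standard error 0.12, adjusted p = 0.793, and -0.31 without the pair). The other 8 were Kif11, Kif20a, Kif23 and Kif2c, which encode kinesins, and Nusap1, Tpx2, Hmmr and Aspm, which encode spindle proteins. For the scaffold of the cleavage furrow, Anln, the cultures were close to one another, at 10.49, 10.45 and 10.37 in Meg3 and 10.42, 10.36 and 10.48 in vector cultures, a difference of 0.02 (-0.04 without the pair) with a 95% interval of -0.24 to 0.27. Racgap1, a partner in cytokinesis, differed by -0.06.

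Mki67 and Top2a are often used to count dividing cells. Mki67, the Ki-67 antigen that coats mitotic chromosomes, was 10.70, 10.59 and 10.61 in Meg3 and 10.51, 10.48 and 10.67 in vector cultures, the highest difference of the mitotic members at 0.08 and 0.01 without the pair. Its 95% interval was -0.19 to 0.34, and the groups overlapped. Top2a, the topoisomerase that untangles chromosomes before they part, was 11.81, 11.45 and 11.42 in Meg3 and 11.50, 11.83 and 11.55 in vector cultures, a difference of -0.07 (-0.09 without the pair). Its high cultures were Meg3 culture 1 and vector culture 2, which for Aurkb, Plk1 and Foxm1 were the low ones.

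Replication members had a median difference of 0.05, with 17 of 29 above 0, beside 10537 of 20416 over all genes. The median was -0.07 without vector culture 2. The licensing genes load the helicase onto origins in G1. Mcm2, a helicase subunit, was 9.53, 10.32 and 10.07 in Meg3 and 10.28, 8.96 and 10.25 in vector cultures, a difference of 0.15 (-0.07 without the pair) with a standard error of 0.36. Mcm3, another subunit, was 9.46, 9.92 and 9.75 in Meg3 and 9.83, 8.72 and 9.87 in vector cultures, a difference of 0.23. This was the highest of all members with all 6 arrays, but it rested on vector culture 2, since it was -0.14 without that culture and -0.02 without the pair. Mcm5 was 8.16, 8.75 and 8.62 in Meg3 and 8.65, 7.91 and 8.72 in vector cultures, a difference of 0.08 that was within 0.01 of 0 without the pair. In each of these subunit genes vector culture 2 was lowest, Meg3 culture 1 was next, and the other 4 cultures lay together. Mcm4, Mcm6 and Mcm7 differed by 0.09, 0.05 and 0.12.

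Cdc6 and Cdt1 load the helicase. Cdc6 was 8.14, 8.23 and 8.13 in Meg3 and 8.59, 8.11 and 8.60 in vector cultures, the lowest difference of the replication members at -0.27 (standard error 0.16, limma, adjusted p = 0.939, and -0.41 without the pair). Its sign turned with the summary of probe sets, since it was 0.13 with their median. As with Ccnb2, vector culture 2 lay with the Meg3 cultures while the other vector cultures lay above them. Cdt1 was 6.83, 7.37 and 7.17 in Meg3 and 7.58, 6.84 and 7.36 in vector cultures, a difference of -0.14 (-0.20 without the pair) with overlap. It was 0.39 with the brightest probe set, so its sign turned too. Cdc45, Gins1 and Gins2 turn the loaded helicase on. Gins2 was 9.63, 10.82 and 10.55 in Meg3 and 11.02, 8.85 and 10.88 in vector cultures, the widest spread between cultures of any member, and its difference of 0.08 had a 95% interval of -1.21 to 1.38 and was -0.27 without the pair. Gins1 and Cdc45 differed by 0.10 and 0.14.

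At the fork, the sliding clamp gene Pcna was 12.36, 12.26 and 12.16 in Meg3 and 12.18, 12.30 and 12.24 in vector cultures, a difference of 0.02 (within 0.01 of 0 without the pair) with a 95% interval of -0.24 to 0.28. Fen1, the nuclease that trims Okazaki fragments, was 7.09, 7.49 and 7.36 in Meg3 and 7.81, 7.12 and 7.67 in vector cultures, a difference of -0.22 (-0.32 without the pair). Lig1, the ligase that joins them, was 8.94, 9.27 and 9.37 in Meg3 and 9.11, 8.54 and 9.29 in vector cultures, a difference of 0.21 (0.12 without the pair). All these genes overlapped between the clones. Fen1 and Lig1 act on the same substrate and had differences of opposite sign with all arrays, with standard errors of 0.20 and 0.21. The signs also differed with the median of their probe sets (-0.22 and 0.12), but not with the brightest (0.06 and 0.07). The DNA polymerase and primase genes Pola1, Pold1, Pole and Prim1 differed by -0.01 to 0.14, and the clamp loader genes Rfc3 and Rfc4 by 0.01 and -0.09.

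The 3 enzymes of nucleotide supply had differences below 0, also without the pair, but 2 of them did with the brightest probe set. Rrm2, the ribonucleotide reductase subunit made in S phase, was 10.06, 9.92 and 9.70 in Meg3 and 10.22, 9.87 and 10.15 in vector cultures, a difference of -0.19 (-0.38 without the pair) with overlap. The other reductase subunit gene Rrm1 and the thymidylate synthase gene Tyms differed by -0.13 and -0.07. Of the regulators of S phase entry, Ccne1, which encodes cyclin E1, was 9.52, 9.42 and 9.45 in Meg3 and 9.37, 9.14 and 9.32 in vector cultures, without overlap (difference 0.19, standard error 0.12, adjusted p = 0.974, and 0.09 without the pair). Its paralogue Ccne2 was 9.87, 9.63 and 9.53 in Meg3 and 9.68, 10.10 and 9.64 in vector cultures, a difference of -0.13 (-0.08 without the pair) with overlap. E2f1, which encodes an activating E2F factor, was 7.22, 7.37 and 7.41 in Meg3 and 7.42, 7.07 and 7.38 in vector cultures, a difference of 0.05 (-0.01 without the pair). Ung, which removes uracil from DNA, was 6.63, 6.74 and 6.92 in Meg3 and 6.66, 7.34 and 6.69 in vector cultures, with vector culture 2 the highest (difference -0.14, and 0.15 without the pair). Slbp, for histone mRNA processing, and Uhrf1, for maintenance of DNA methylation, differed by -0.04 and -0.02.

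Averaged over the set, the mitotic members were 9.72, 9.81 and 9.74 in Meg3 and 9.92, 9.66 and 9.94 in vector cultures, or 9.76 ± 0.05 and 9.84 ± 0.16 (SD, n = 3 each). The replication members averaged 9.26, 9.43 and 9.31 in Meg3 and 9.44, 9.07 and 9.43 in vector cultures, or 9.33 ± 0.08 and 9.32 ± 0.21 (SD, n = 3 each). In both sets vector culture 2 was the lowest and the groups overlapped. The mitotic mean minus the replication mean was 0.46, 0.39 and 0.44 in Meg3 and 0.48, 0.59 and 0.51 in vector cultures, so the Meg3 cultures lay below the vector cultures by 0.10 on average without overlap. These means are over the chosen members and carry no test.

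**Figure D3:**
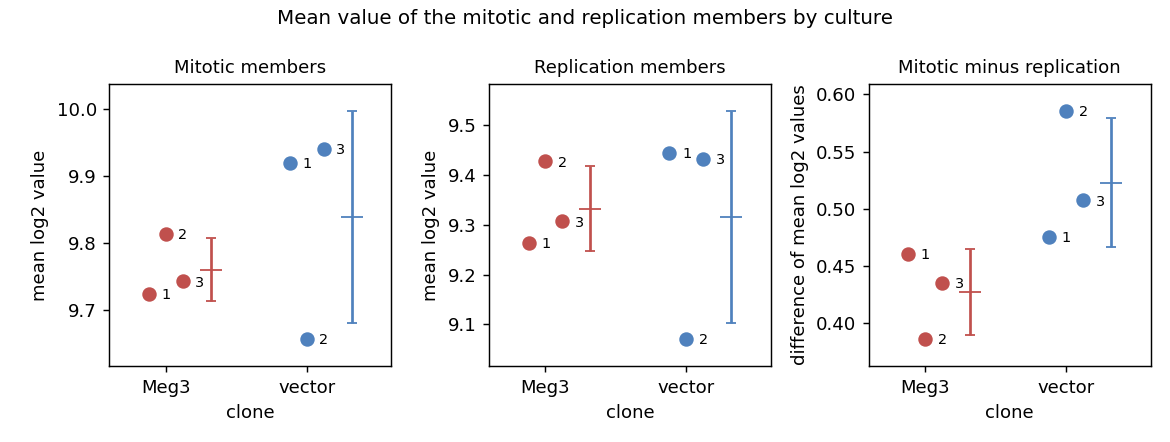
Mean log2 value of the 29 mitotic members, of the 29 replication members, and their difference, by culture. Points are cultures with their replicate number, Meg3 at the left and vector at the right of each panel, and bars give the mean and SD of 3 cultures. Vector culture 2 is lowest for both sets, and the mitotic minus replication difference is 0.39 to 0.46 in Meg3 and 0.48 to 0.59 in vector cultures.

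Single cultures were also set against the rest of their own clone. The deviation of a culture was taken as its value minus the mean of the other cultures of its clone. In vector culture 2 the median deviation was -0.18 over the mitotic and -0.32 over the replication members, against 0.08 over all genes. These medians shrank to -0.06 and -0.17 when the arrays were quantile normalized again, and to -0.06 and -0.05 with the brightest probe set. Of the 58 members, 23 (39.7%) lay more than 0.5 below the rest of their clone there, against 15.1% of all genes, and 2 (3.45%) lay more than 0.5 above it, against 9.2% of all genes. In Meg3 culture 1 the medians were 0.03 and -0.04, against 0.02 over all genes, and 10 members (17.2%) lay more than 0.5 below, against 7.11% of all genes. All 58 members lay above the median level of all genes. Values over all genes, here and below, also cover dimmer genes and are not matched for level.

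**Figure D4:**
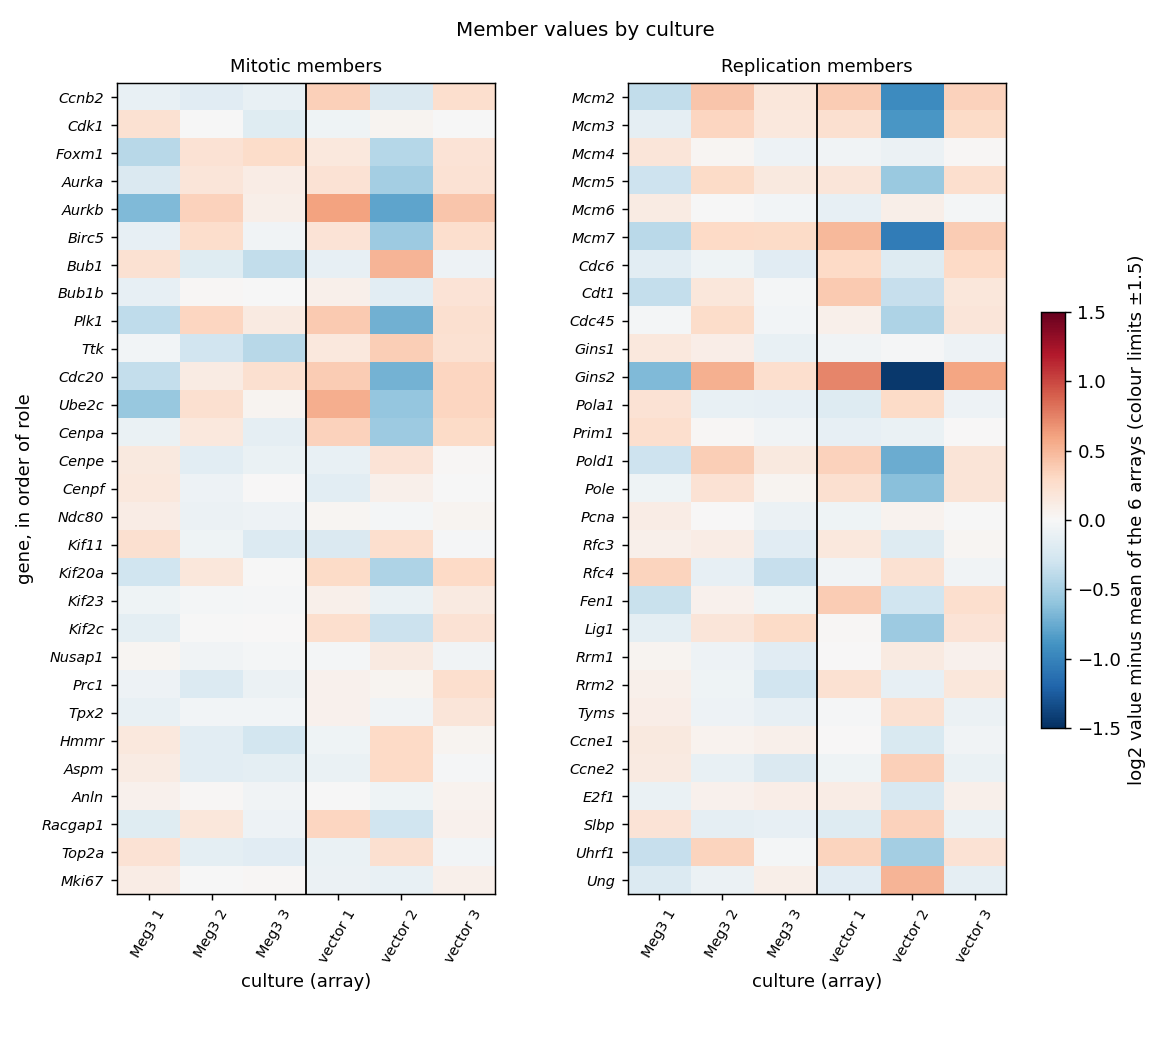
Log2 value of each measured member in each culture, minus its mean over the 6 arrays, with Meg3 cultures left of the line and vector cultures right of it. Blue is lower and red is higher. Vector culture 2 and, more weakly, Meg3 culture 1 are blue for one group of genes, such as Aurkb, Mcm2, Mcm7 and Gins2. Both cultures are red for another group, such as Bub1, Top2a and Rfc4.

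The deviations of these 2 cultures were compared gene by gene. Across the 58 members, the deviations in Meg3 culture 1 and in vector culture 2 correlated at a Pearson coefficient of 0.90, and at 0.93 and 0.88 within the mitotic and the replication members. Over all 20416 genes the coefficient was 0.65, and over 122 other cell cycle genes it was 0.87. The deviations within a clone sum to 0, so other pairs of cultures were related too: over the 58 members the coefficient was 0.92 between Meg3 culture 2 and vector culture 1 and 0.82 between Meg3 culture 2 and vector culture 3. The coefficient of 0.90 therefore does not by itself single out this pair of cultures, and the other coefficients are not independent of it. These are descriptions across genes that share the same arrays, and genes are not independent replicates. Of the members, 25 (43.1%) were lowest of their clone in both cultures, against 25.3% of all genes. The 25 are 96.2% of the 26 members lowest in Meg3 culture 1 and 67.6% of the 37 lowest in vector culture 2. Over all genes these shares were 67% and 67.2%. Another 19 members (32.8%) were highest of their clone in both, against 31.2% of all genes. Extreme in opposite ways were 8 members (13.8%) highest in Meg3 culture 1 and lowest in vector culture 2, against 6.34% of all genes, and 1 member (1.72%) the other way round, against 9.44%.

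Both patterns ran through both sets of genes. Low in both cultures were 13 mitotic members: Foxm1, Aurka, Aurkb, Birc5, Bub1b, Plk1, Cdc20, Ube2c, Kif20a, Kif23, Kif2c, Tpx2 and Racgap1. Also low in both were 12 replication members: Mcm2, Mcm3, Mcm5, Mcm7, Cdt1, Gins2, Pold1, Pole, Fen1, Lig1, E2f1 and Uhrf1. High in both were Cdk1, Bub1, Ttk, Cenpe, Cenpf, Kif11, Nusap1, Hmmr, Aspm and Top2a of the mitotic members. High in both among the replication members were Mcm6, Gins1, Pola1, Pcna, Rfc4, Rrm1, Tyms, Ccne2 and Slbp. Subunits of one machine thus parted: Gins2 deviated by -1.05 in Meg3 culture 1 and -2.10 in vector culture 2, and Gins1 by 0.17 and 0.04. In the helicase, Mcm7 deviated by -0.70 and -1.48, Mcm2 by -0.67 and -1.30, and Mcm6 by 0.14 and 0.17 in the same cultures. Among the checkpoint kinases, Aurkb deviated by -0.88 and -1.30 and Bub1 by 0.50 and 0.61. These are gene means, and probe sets of the same gene also parted. In vector culture 2 probe sets deviated by -3.46 to 0.00 in Mcm7, -3.19 to 0.14 in Mcm2 and -0.42 to 0.67 in Mcm6. They deviated by -0.68 to 1.01 in Gins1 and by -2.33 to -1.99 in Gins2. Ung was the 1 member that was lowest of its clone in Meg3 culture 1, at -0.20, and highest in vector culture 2, at 0.67. The part of array quality, RNA quality or culture state in these deviations was not tested.

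**Figure D5:**
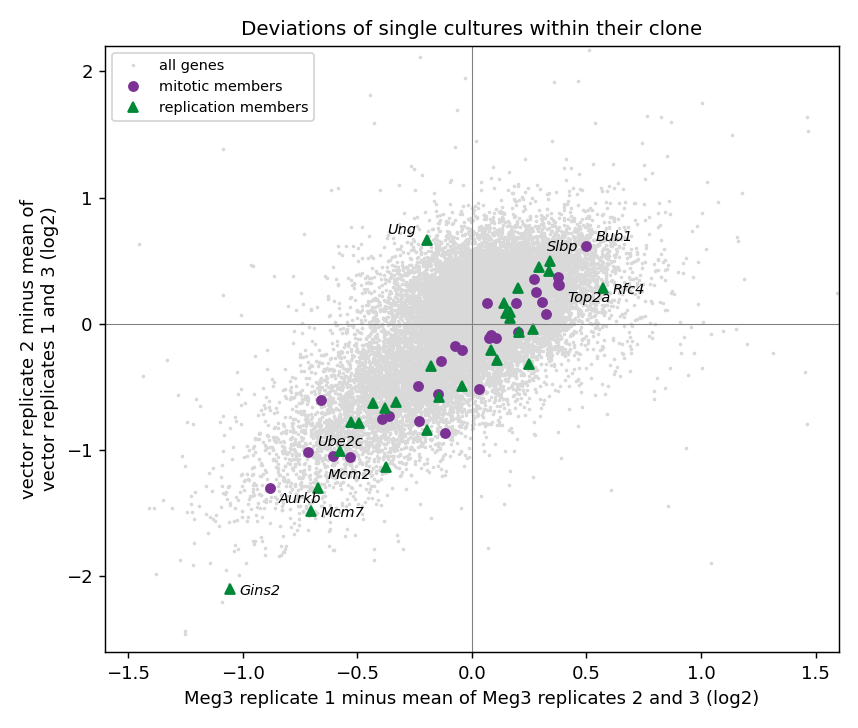
Deviation of Meg3 culture 1 (horizontal) and of vector culture 2 (vertical) from the mean of the other cultures of the same clone, in log2 units, for all genes (grey), mitotic members (circles) and replication members (triangles). The axes leave out 11 of the 20416 genes, none of them a member. Members run from Gins2 at the lower left (-1.05, -2.10) to Bub1 at the upper right (0.50, 0.61), with Ung apart at the upper left.

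Leaving out Meg3 culture 1 and vector culture 2, an alternative chosen after seeing the data, limma called 1111 of all genes (5.44%), 292 higher (1.43%) and 819 lower (4.01%). Of the 58 members it called 0 higher and 3 lower, a share near that of all genes. Ttk differed by -0.54 (standard error 0.10, adjusted p = 0.0135), Ccnb2 by -0.45 (standard error 0.10, adjusted p = 0.0298) and Cdc6 by -0.41 (standard error 0.10, adjusted p = 0.0385). Ttk and Ccnb2 act in mitosis and Cdc6 in replication licensing. With limma's array weights on all 6 arrays the same 3 members were called lower, again a share near that of all genes (6.0%, and 4.21% lower). Those weights were estimated from the spread of these same values, and the pair of cultures was left out for its spread in them. Neither setting is therefore an independent check. For Ccnb2 and Cdc6, the vector culture left out was the one that lay with the Meg3 cultures. On single probe sets without that pair, limma called 0 of the members' 937, and 0 of 241419 in all. Without the pair of cultures, 26 of the 29 mitotic members had a difference below 0, with a median of -0.13. Of the 29 replication members 21 did, with a median of -0.02. Over all genes 9246 of 20416 did, with a median of 0.02. The mitotic mean was then 0.15 lower and the replication mean 0.07 lower in Meg3 than in vector cultures. The mitotic minus replication gap was then 0.08 lower.

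Probe sets on this array cover about an exon each. The members together had 937 probe sets, from 3 for Tyms to 51 for Pole, and limma called 0 of them, against 2 of 241419 in all (0.000828%). At an unadjusted p under 0.05 there were 17, against 5.66% of all probe sets. Mitotic probe sets had a difference below 0 in 329 of 511 cases, and replication probe sets in 182 of 426. For 4 genes every probe set had a difference of one sign: Ttk with all 21 below 0, Ccnb2 with all 10 below 0, Rrm2 with all 9 below 0, and Prim1 with all 14 above 0. Probe sets of a gene share its RNA and the same 6 arrays and are not replicates.

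Other genes of cell division were set beside the members. In lists of 36 further mitotic genes, 37 further replication genes, 16 cell cycle transcription regulators, 9 G1 cyclins and CDKs, 14 anaphase-promoting complex genes and 10 cohesin genes, limma called 0 in each. At an unadjusted p under 0.05 there were 3, 1, 0, 1, 0 and 1 genes in those lists. Their median differences were -0.06, -0.02, -0.04, -0.09, -0.06 and 0.01. Without Meg3 culture 1 and vector culture 2, the alternative chosen after seeing the data, limma called 8 of these 122 genes lower and 0 higher, against 4.01% and 1.43% of all genes (5.44% together). They were Mastl, the Greatwall kinase, at -0.57, the spindle gene Dlgap5 at -0.40, the origin recognition gene Orc6 at -0.43, Topbp1 at -0.42, the licensing inhibitor gene Gmnn at -0.51, the cyclin E kinase gene Cdk2 at -0.48, and the cohesin genes Stag1 at -0.53 and Esco2 at -0.49.

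The genes whose values followed the mitotic mean most closely over the 6 arrays, among 10017 genes above the median level that are neither members nor on the cell cycle and marker lists, were Adam23, Pip5k1b, Zfp185, Prkar1a and Ctnna1, with Pearson coefficients of 0.998, 0.996, 0.995, 0.994 and 0.994. Adam23 was 7.24, 7.45 and 7.31 in Meg3 and 7.69, 7.06 and 7.74 in vector cultures. As in the mitotic mean, vector culture 2 was the lowest and the other vector cultures were the highest. A correlation over 6 arrays picked from so many genes is a description and carries no p.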

How the data were processed

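RNA of 3 Meg3 and 3 vector cultures was measured on Affymetrix arrays from 6 µg of total RNA each, per the labels' protocols. The deposited table gives a log2 value for each probe set. RMA and Partek are the tools in the submitters' processing notes, whose versions, like the build of the array annotation, are not stated there. Of 241419 probe sets, 212097 carried 1 symbol, 4475 several and 24847 none, and genes were built from the first kind alone. A gene was the mean of its probe sets (median 8). Symbols were updated through a RefSeq gene table of GRCm38.p6, in which 20363 of 20416 matched, 2742 through a synonym; Cdk1 and Cdc45 are Cdc2a and Cdc45l on the array. Dim genes were kept.

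The clones were tested with lmFit and eBayes of limma 3.58.1 under R 4.3.3, two-sided and as Meg3 minus vector, with Benjamini-Hochberg adjustment over all genes and a threshold of 0.05. With 3 cultures against 3, an exact permutation test cannot go below 0.1. The fit was tested on simulated data, drawn independently for each gene and array. Those data lacked the deviations that genes shared in single cultures, so the test does not cover them. The members and lists were chosen with earlier results of these data known. Genes given in full were a set of standard proliferation genes and, in each set, those with the highest and lowest differences or the least and most alike cultures. The main fit did not pair samples by replicate number. Deviations of same-numbered cultures correlated at -0.61, -0.63 and 0.28. These values cannot settle whether cultures were handled in pairs, since the divergent cultures carry different numbers. Alternatives were other summaries of probe sets, scalings, fits and left-out cultures. No table of protein sequences was used.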

Additional observations from a re-analysis of the deposited data

How the results depend on the processing

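The count of 136 genes called of 20416 was 30 with the replicate block, 40 with the brightest probe set of a gene, 58 with the median of its probe sets, 1225 with array weights and 1111 without vector replicate 2 and Meg3 replicate 1 together. Leaving out 1 culture gave 22 to 349: 79, 26 and 22 without Meg3 replicate 1, 2 and 3, and 59, 349 and 50 without vector replicate 1, 2 and 3. Members called numbered 3 with array weights (Ttk, Ccnb2 and Cdc6), 3 without that pair of cultures, and 0 under every other setting run, the replicate block included. Other cell cycle genes called numbered 8 with array weights and 8 without the pair. The cause was not tested. The median differences of both sets and the gap between them moved by less than the spread between replicates under every setting run, but their signs were not fixed: the mitotic median of -0.07 was -0.18 without vector replicate 2 and 0.01 with the brightest probe set, and the replication median of 0.05 was -0.07 without vector replicate 2, -0.02 without Meg3 replicate 2, -0.02 without the pair and -0.04 with array weights. The gap was below 0 under every setting that gave it a value. Of the 28 members given in full, 13 turned sign without vector replicate 2, Mcm3 (0.23 to -0.14) among them and none of them called. Culture deviations depended on scaling and on how probe sets were summarised: in vector culture 2, -0.18 for mitotic members became -0.059 when quantile normalized again and -0.064 with the brightest probe set, and -0.32 for replication members became -0.17 when quantile normalized again. Also, for replication members in vector culture 1, 0.19 became -0.034 with the brightest probe set and -0.036 with the median, in vector culture 2, -0.32 became -0.054 with the brightest, and for mitotic members in vector culture 3, 0.17 became 0.048 with the brightest. Meg3 itself was 2.02 higher with the brightest probe set (adjusted p = 0.241), 3.33 with the median (adjusted p = 0.0629) and 1.55 to 1.88 leaving out 1 culture, passing the threshold except without Meg3 replicate 3 (1.74, adjusted p = 0.0666).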
